A study of Homo sapiens with 6 samples.

Results

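The genes described here are 9 that encode NRF2 and the proteins it works with or against: the cap'n'collar factors NFE2L2 (NRF2), NFE2L1 (NRF1) and NFE2L3 (NRF3), the inhibitor KEAP1, the small MAF partners MAFF, MAFG and MAFK, and the repressors BACH1 and BACH2. They are 9 of the 19974 protein-coding genes on chromosomes 1 to 22 and X in the RefSeq table for human genome build GRCh38.p14, and were chosen by name. A peak was assigned to a gene when its summit, the position of most sequenced tags, lay inside the gene or within 50 kb of either end. The peaks came from chromatin immunoprecipitation and sequencing (ChIP-seq) with an antibody against NRF2 in HMC3 cells, a widely used line of human microglia. CDDO-Im, an oleanane triterpenoid known as a potent NRF2 activator, was given at 30 nM for 4 h to the cells of 2 libraries, and 2 more libraries came from vehicle cells. The labels describe the CDDO-Im treatment in the same words for every sample, so the groups rest on the sample titles, and they do not name the vehicle. Binding of NRF2 is not expression, so these lists hold no check of microglial markers and say nothing of how much of each gene product the cells made.

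In unstressed cells KEAP1 holds NRF2 to a CUL3 ubiquitin ligase, and NRF2 is degraded. Electrophiles such as CDDO-Im react with cysteines of KEAP1, NRF2 then accumulates in the nucleus, pairs with a small MAF protein and binds antioxidant response elements in DNA. Small MAF proteins have no activation domain of their own, and BACH1 and BACH2 pair with the same small MAF proteins to repress genes through such elements.

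With CDDO-Im, NRF2 peaks were listed near 3 small MAF genes and NFE2L1, and neither vehicle library listed a peak in the window of any of the 9 genes. MAFK and NFE2L1 each had 1 region listed in both CDDO-Im libraries, where a region is a set of peaks that overlap by at least 1 bp. MAFG had 4 regions and MAFF had 1, all listed in CDDO-Im 2 alone. NFE2L2, NFE2L3, KEAP1, BACH1 and BACH2 had no peak in any library. The windows held 2 peaks of CDDO-Im 1 and 7 of CDDO-Im 2, against 0 of vehicle 1 and 0 of vehicle 2. The 9 windows add up to 1.47 Mb. At the density of peaks over the windows of all protein-coding genes, 1.71 peaks of CDDO-Im 1, 2.57 of CDDO-Im 2, 0.628 of vehicle 1 and 0.688 of vehicle 2 would fall in that length. An empty vehicle list over these windows is thus less than 1 peak per library short of that density. The mean number listed was 4.5 ± 3.54 peaks with CDDO-Im and 0 ± 0 with vehicle (SD, n = 2 each). The CDDO-Im libraries both lay above the vehicle libraries, with an exact two-sided permutation p of 0.33, the smallest that 2 libraries against 2 can give. The difference of 4.5 peaks was 7.0 without CDDO-Im 1 and 2.0 without CDDO-Im 2, and the all-gene density alone gives a difference of 1.49 peaks over these windows. Whether the 9 genes differ from other genes in this was not tested. This p reflects only that order of the libraries and not the size of their spread. Nothing in the labels says that libraries of a group came from separate cultures, so differences between libraries may be technical.

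**Figure D1:**
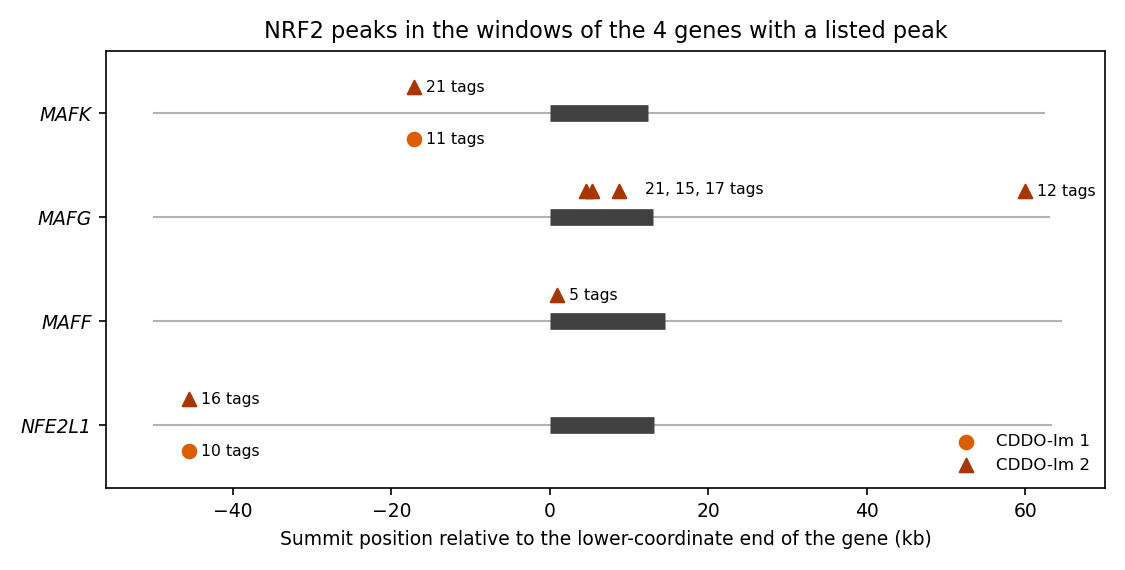
Peaks in the windows of MAFK, MAFG, MAFF and NFE2L1. The horizontal axis gives the summit's distance in kb from the lower-coordinate end of the gene, in the direction of rising coordinates; dark bars are genes, grey lines are the 50 kb windows, circles are CDDO-Im 1 and triangles CDDO-Im 2, with recovered tags beside them. MAFK and NFE2L1 have a summit of each CDDO-Im library at almost the same place, and the MAFG and MAFF peaks are of CDDO-Im 2 alone; no vehicle peak lies in these windows.

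The 4 lists differed in length, with 4024 (CDDO-Im 1), 12433 (CDDO-Im 2), 4227 (vehicle 1) and 7448 (vehicle 2) entries. Outside megabases with more than 20 regions each, which take up many of the CDDO-Im 2 and vehicle peaks and hold none of the peaks described here, there were 3249 and 4795 peaks with CDDO-Im and 1216 and 1276 with vehicle. The lists give no library totals. The genome-wide background at a summit was 0.332 and 0.367 tags in the CDDO-Im libraries and 0.316 and 0.315 tags in the vehicle libraries. It depends on the length given to each tag as well as on depth, so it does not measure depth alone. That length was not given. The shortest listed peaks were 206 bp (CDDO-Im 1), 177 bp (CDDO-Im 2), 201 bp (vehicle 1) and 169 bp (vehicle 2). Whether CDDO-Im 2 was sequenced deeper than the other libraries was not tested. These tag numbers were computed back from each peak's fold and p-value.

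The shares of genes with a peak are to be read against all protein-coding genes. A region of both CDDO-Im libraries lay in the window of 2 of the 9 genes (22.2%) and of 11.6% of all 19974 genes. A region that both CDDO-Im libraries listed and no vehicle library did, called gained here, lay in the window of the same 2 genes (22.2%) and of 7.56% of all genes. A region of both vehicle libraries lay in the window of 0 of the 9 genes and of 1.81% of all genes. The members' shares rest on 2 genes and were given no test.

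Library by library, a peak of CDDO-Im 1 lay in the windows of 2 of the 9 genes, against 16.4% of all genes, and a peak of CDDO-Im 2 in those of 4 (44.4%), against 23.0% of all genes. For vehicle 1 and vehicle 2 the members' count was 0, against 6.66% and 7.53% of all genes. Inside the gene itself, CDDO-Im 1 listed a peak for 0 of the 9 genes, against 6.38% of all genes. CDDO-Im 2 listed one for 2, MAFG and MAFF, against 9.05%. Vehicle 1 and vehicle 2 listed one for 0, against 2.52% and 2.66% of all genes. The 7 peaks of CDDO-Im 2 include 4 in the window of MAFG. The peaks nearest the 50 kb limit lay 45.6 kb (NFE2L1) and 46.9 kb (MAFG) from the gene, and a limit of 100 kb added no peak of any library.

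**Figure D2:**
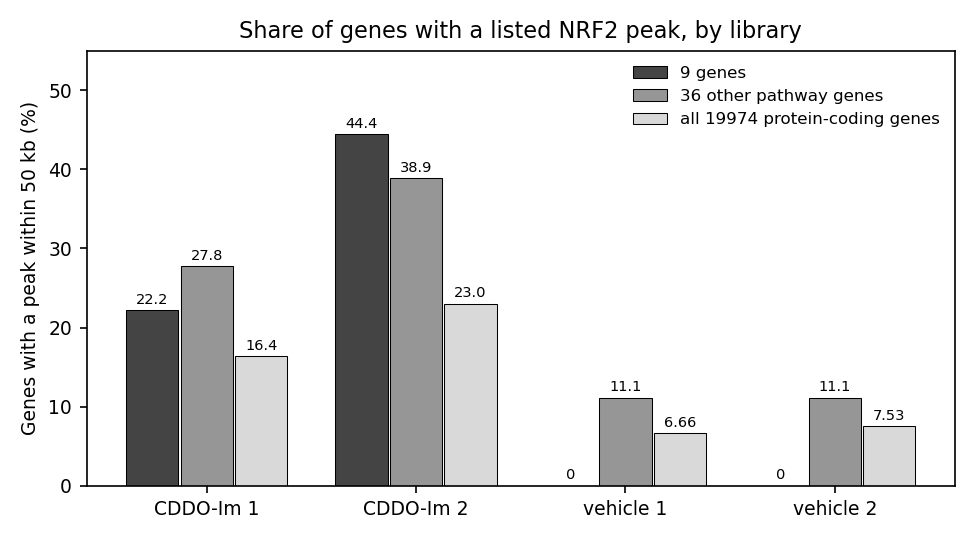
Share of genes, in percent, with a listed NRF2 peak inside the gene or within 50 kb, for each library. Dark bars are the 9 genes, mid-grey bars 36 other genes of the pathway and light bars all 19974 protein-coding genes; the 9 genes stand at 22.2% and 44.4% in CDDO-Im 1 and 2 and at 0 in both vehicle libraries, where all genes stand at 6.66% and 7.53%.

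Of the activators, NFE2L1 was the one with a peak in its window. It encodes NRF1, a factor anchored in the endoplasmic reticulum that drives proteasome genes, and lies on chromosome 17 from 48048359 to 48061545 (gene ID 4779). The region (48002637 to 48002924) lay 45.6 kb below the gene, close to the limit of the window, in no annotated gene. Of the 4 protein-coding genes within 50 kb of its summits NFE2L1 was the farthest: CDK5RAP3 lay 21003 bp, COPZ2 23383 bp and PRR15L 44901 bp from the CDDO-Im 2 summit, and NFE2L1 45575 bp. The assignment to NFE2L1 is therefore by distance alone.

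At this region CDDO-Im 1 had 10 tags, a deposited fold enrichment of 6.58, a −log10 p of 9.77 and a −log10 q of 5.87. CDDO-Im 2 had 16 tags, a fold enrichment of 10.4, a −log10 p of 18.2 and a −log10 q of 14.2. Fold enrichment and both −log10 values are the authors' own, each relative to the background of its library, and serve only to describe and rank peaks within a list. The summits of the CDDO-Im libraries were 7 bp apart. Divided by the genome-wide background of each library, the tags were 30.2 in CDDO-Im 1 and 43.5 in CDDO-Im 2, a ratio of 1.44 between replicates, where the median over gained regions outside the peak-dense megabases was 1.28. Those 1428 gained regions had medians of 11 (CDDO-Im 1) and 16 tags (CDDO-Im 2), so the NFE2L1 region was of about median height.

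Neither vehicle library listed this site. An unlisted site may still carry signal under the listing level. The local background was 2.02 times the genome-wide one in CDDO-Im 1 and 1.71 times in CDDO-Im 2. Among peaks with a background within 10% of the CDDO-Im 1 value, vehicle 1 listed peaks from 6 tags and vehicle 2 from 5 tags. At the CDDO-Im 2 value both vehicle libraries listed peaks from 5 tags. Those levels are 19.0 and 15.9 tags over background at the CDDO-Im 1 value, and 15.8 and 15.9 at the CDDO-Im 2 value, below both CDDO-Im libraries. A vehicle signal below them could not be seen in these lists.

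NFE2L2, the gene of NRF2 (chromosome 2, 177230303 to 177264727, gene ID 4780), had no peak in its window. The nearest peak was a region of both CDDO-Im libraries 308.5 kb from the gene, of 9 tags (CDDO-Im 1) and 7 tags (CDDO-Im 2), outside the distance that assigns a peak here. The nearest vehicle peaks lay 1460.9 kb (vehicle 1) and 600.0 kb (vehicle 2) away. NFE2L3, which encodes the related factor NRF3 (chromosome 7, 26152198 to 26187137, gene ID 9603), had its nearest CDDO-Im peaks 2006.2 kb (CDDO-Im 1, 5 tags) and 409.7 kb away (CDDO-Im 2, 18 tags). A vehicle 1 peak of 5 tags lay nearer, at 344.3 kb, and the nearest of vehicle 2 was 1888.4 kb away.

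KEAP1, the inhibitor (chromosome 19, 10486125 to 10503356, gene ID 9817), had no peak in its window either. The nearest summit of CDDO-Im 2 was 309.9 kb away with 12 tags, and that of CDDO-Im 1 was 4963.7 kb away. The nearest vehicle summits were 461.0 kb (vehicle 1, 6 tags) and 3100.2 kb (vehicle 2, 14 tags) away. The region nearest to KEAP1 that both CDDO-Im libraries listed was the one 4963.7 kb away.

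The windows of the small MAF genes held 7 of the 9 peaks. Of these, 4 lay inside MAFG or MAFF, all of CDDO-Im 2. MAFK (chromosome 7, 1530702 to 1543043, gene ID 7975) had the taller of the pair of regions, here and at NFE2L1, seen in both CDDO-Im libraries. It spanned 1513384 to 1513740, between INTS1 and MAFK and in no annotated gene. From the CDDO-Im 2 summit, INTS1, which encodes a subunit of the Integrator complex, was 9157 bp away, MAFK 17156 bp and TMEM184A 28689 bp.

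CDDO-Im 1 had 11 tags at the MAFK region, with a fold enrichment of 6.79, a −log10 p of 10.4 and a −log10 q of 6.43. CDDO-Im 2 had 21 tags, with a fold enrichment of 16.1, a −log10 p of 30.8 and a −log10 q of 26.4. The summits lay 4 bp apart. By −log10 q the peak ranked 1925 of 4024 in CDDO-Im 1 and 940 of 12433 in CDDO-Im 2. Tags over the genome-wide background were 33.2 in CDDO-Im 1 and 57.2 in CDDO-Im 2, a ratio of 1.72 between replicates. The local background was 0.767 tags in CDDO-Im 1 and 0.367 tags in CDDO-Im 2, and it enters the fold enrichment of each. Around those backgrounds, vehicle 1 listed peaks from 6 tags at the CDDO-Im 1 value and from 4 at the CDDO-Im 2 value, and vehicle 2 from 5 and from 4 tags. The nearest vehicle peaks were 625.0 kb (vehicle 1) and 2399.8 kb (vehicle 2) from MAFK.

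MAFG (chromosome 17, 81918270 to 81931244, gene ID 4097) had 3 peaks inside the gene, all in CDDO-Im 2 alone. They spanned 81922634 to 81922931, 81923463 to 81923697 and 81926760 to 81927111, and lay together within 4478 bp. The gene is read from the minus strand, and RefSeq lists a start at 81927735, from which the 3 summits lay 4949, 4141 and 755 bp downstream. They held 21, 15 and 17 tags, with fold enrichments of 12.5, 11.1 and 8.93, −log10 p of 24.0, 19.3 and 16.1, and −log10 q of 19.7, 15.2 and 12.2. Over the genome-wide background these were 57.2, 40.8 and 46.3. By −log10 q they ranked 1352, 1888 and 2426 of the 12433 peaks. The highest MAFG peak thus had the 21 tags of the MAFK peak in the same library. A further peak in the window (81978097 to 81978320), 46.9 kb from MAFG, lay inside ASPSCR1 and had 12 tags, a fold enrichment of 7.38, a −log10 p of 11.6 and a −log10 q of 7.92.

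The MAFG peaks had no counterpart in the replicate. The nearest peak of CDDO-Im 1 was 427.9 kb from the gene, and vehicle 2 listed a peak in that same region, while the nearest of vehicle 1 was 954.8 kb away. At a local background within 10% of that of the 3 peaks in the gene, CDDO-Im 1 listed peaks from 6, 4 and 6 tags, vehicle 1 from 6, 4 and 6 and vehicle 2 from 5, 4 and 6. Outside the peak-dense megabases, 499 (70.5%) of the 708 CDDO-Im 2 peaks with 15 to 21 tags, the range of these 3 peaks, overlapped a peak of CDDO-Im 1, so a peak of this height was relisted more often than not. As a count chosen after the values were seen, 14 protein-coding genes (0.0701%) held 3 or more peaks of CDDO-Im 2 alone inside the gene, MAFG among them, and 75 (0.375%) held 3 or more CDDO-Im 2 peaks of any kind. The MAFG peaks were thus those of 1 library, and the other CDDO-Im library did not list them.

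MAFG shares this stretch with other genes. Within 50 kb of the summits inside it lay 9 protein-coding genes, MAFG included, and SIRT7 was 4610 bp and PYCR1 9605 bp from the first summit. The first peak lies at the start of MAFG-AS1, a long non-coding RNA gene read from the opposite strand (81922899 to 81924511), and the second has its summit inside it. ChIP tags carry no information on which of the overlapping genes a site serves. The RefSeq promoter table covers 95.0% of the first peak, summit included, through the window of MAFG-AS1, and all of the MAFF peak through a MAFF window. These are the only member peaks whose sequence could be read from that table, and they are shown for that reason. Both are given 5′ to 3′ on the plus strand, on GRCh38.p14, with the summit and 10 bases on either side in capitals. The MAFG stretch is chr17:81922649-81922931 and the MAFF stretch is chr22:38202808-38202984.
MAFG, CDDO-Im 2 peak: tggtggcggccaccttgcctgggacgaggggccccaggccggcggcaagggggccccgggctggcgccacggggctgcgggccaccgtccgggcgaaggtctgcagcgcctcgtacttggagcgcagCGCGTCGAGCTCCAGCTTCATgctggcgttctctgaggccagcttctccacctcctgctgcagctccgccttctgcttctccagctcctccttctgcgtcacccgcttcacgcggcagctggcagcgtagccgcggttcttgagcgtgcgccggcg
MAFF, CDDO-Im 2 peak: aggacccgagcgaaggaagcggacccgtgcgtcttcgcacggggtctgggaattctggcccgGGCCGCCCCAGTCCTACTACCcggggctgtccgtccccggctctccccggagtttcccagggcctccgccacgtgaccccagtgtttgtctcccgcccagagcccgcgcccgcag

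Both stretches were rich in G and C, with 71.7% for the MAFG and 71.8% for the MAFF stretch. Neither held TGACNNNGC, the core of the antioxidant response element, or TGANTCA, the core of sites bound by AP-1 factors, on either strand. That says only that these letters are not in the stretches.

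MAFF (chromosome 22, 38201994 to 38216511, gene ID 23764) had 1 peak, inside the gene and in CDDO-Im 2 alone. Its summit stood at position -140 relative to the second RefSeq start of the gene, where the first transcribed base is 0. It held 5 tags, with a fold enrichment of 4.27, a −log10 p of 5.37 and a −log10 q of 2.32. It ranked 11672 of 12433 by −log10 q, and 99.1% of the CDDO-Im 2 peaks outside the peak-dense megabases had at least as many tags. Its tags over background, 13.6, were just above 12.7, the lowest level that either vehicle library listed at its genome-wide background. Of the 286 CDDO-Im 2 peaks with 5 tags outside the peak-dense megabases, 10 (3.50%) overlapped a peak of CDDO-Im 1. A peak this low was thus rarely relisted in the replicate.

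**Figure D3:**
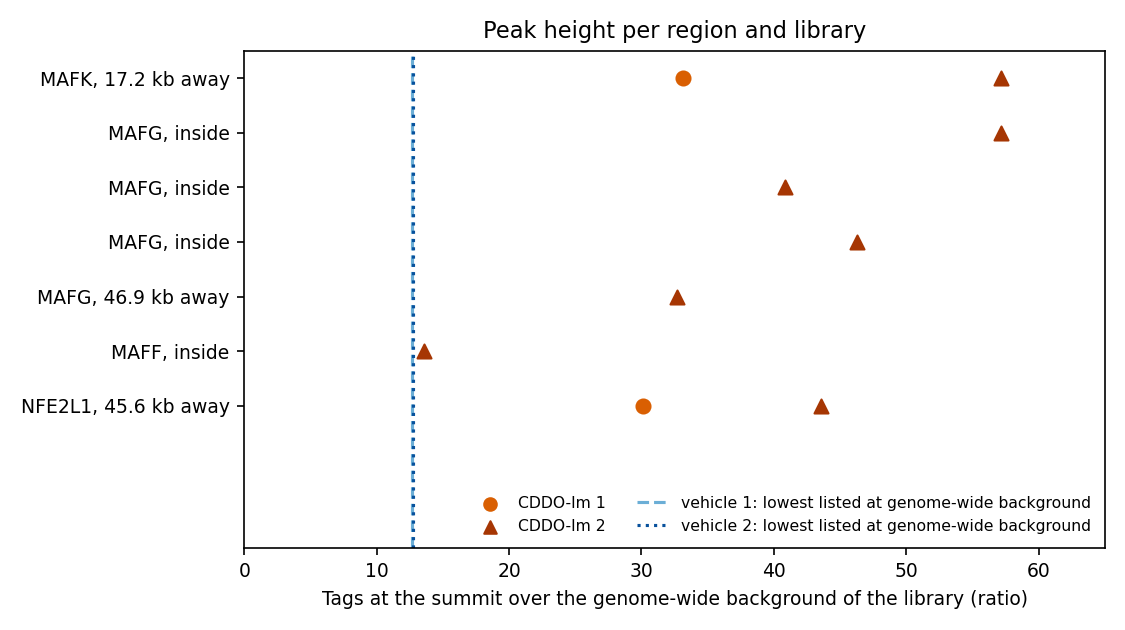
Tags at the summit divided by the genome-wide background of the library, on the horizontal axis, for the 7 regions in the windows of the 9 genes. Circles are CDDO-Im 1 and triangles CDDO-Im 2; the vertical lines mark the lowest listed vehicle peak at the genome-wide background, 12.7 in both vehicle libraries. The MAFK and NFE2L1 regions have a point of each CDDO-Im library between 30.2 and 57.2, and the MAFF peak at 13.6 stands beside the vehicle lines.

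The repressors had no peak in their windows. BACH1, whose protein represses HMOX1 until heme inactivates it (chromosome 21, 29298922 to 29361894, gene ID 571), had a CDDO-Im 2 peak of 13 tags 112.5 kb away, and the nearest region of both CDDO-Im libraries was 420.5 kb away. The nearest vehicle peaks stood at 935.0 kb (vehicle 1) and 1184.6 kb (vehicle 2), each with 5 tags. BACH2, best known as a regulator of lymphocytes (chromosome 6, 89926528 to 90296843, gene ID 60468), is the longest of the 9 genes with 370316 bp, and its window of 470316 bp held no peak. The nearest region to BACH2, 300.3 kb away, was listed by both CDDO-Im libraries with 10 and 13 tags, against vehicle peaks 4442.3 kb (vehicle 1) and 2203.1 kb (vehicle 2) away.

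The median distance from the 9 genes to the nearest peak was 308.5 kb in CDDO-Im 1 and 112.5 kb in CDDO-Im 2, against 954.8 kb in vehicle 1 and 1184.6 kb in vehicle 2. Over all protein-coding genes the medians were 280.3 and 177.3 kb in the CDDO-Im libraries and 789.8 and 715.5 kb in the vehicle libraries. The order of the groups was therefore the same for all genes as for the 9. NFE2L3 went against it, since its nearest peak of all was in vehicle 1, and KEAP1 had a nearer peak in each vehicle library than in CDDO-Im 1. No library listed a peak in the windows of 5 of the 9 genes (55.6%), against 68.5% of all protein-coding genes.

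**Figure D4:**
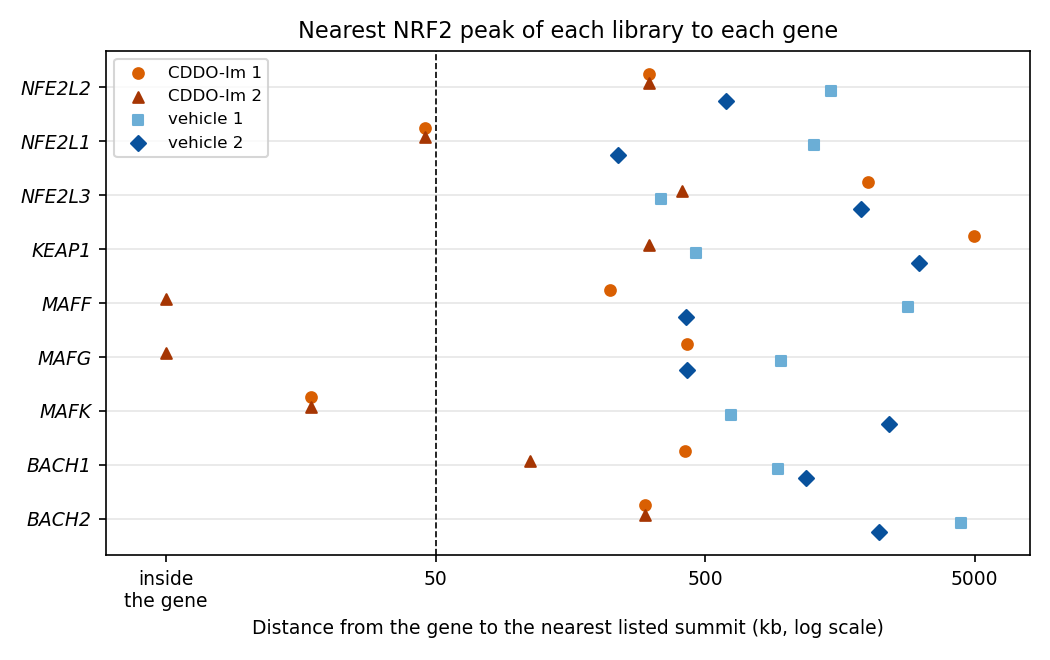
Distance in kb, on a log scale, from each of the 9 genes to the nearest listed summit of each library. Points at the left edge lie inside the gene, and the dashed line marks 50 kb; MAFF and MAFG have a CDDO-Im 2 summit inside the gene, MAFK and NFE2L1 have summits of both CDDO-Im libraries at 17.2 and 45.6 kb, and every vehicle summit lies at 238.1 kb or farther.

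The promoter sequences gave no common pattern. RefSeq gave 14 promoter windows for 8 of the 9 genes, each from 250 bases before to 50 bases after a start. The element TGACNNNGC, searched on both strands, was in 2 of the 14 windows and in 13.3% of the 35116 windows of the whole table. TGANTCA was in 1 of 14, against 7.71% of all windows. These motifs overlap where TGACTCA is followed by GC. A KEAP1 window held 2 matches of TGACNNNGC, at positions -54 and -31 from its start, a MAFF window 1 at -122, and a BACH1 window a match of TGANTCA at -48. The matches are shown because they are the full set found, in capitals with up to 10 bases on either side, 5′ to 3′ along the gene. They lie at chr19:10502807-10502835 and chr19:10502784-10502812 on the minus strand, and at chr22:38201862-38201890 and chr21:29298864-29298890 on the plus strand.
KEAP1, position -54: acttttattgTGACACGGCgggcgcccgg
KEAP1, position -31: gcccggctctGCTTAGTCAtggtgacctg
MAFF, position -122: cttccaggggGCGGGGTCAtacgggggcg
BACH1, position -48: gcggaaggagTGAGTCAcctgaccgct

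No library listed a peak over any of these 4 matches. The MAFF match lies in the first RefSeq window of the gene, and the MAFF peak of CDDO-Im 2 lies over the second one. A match is a string of letters and not a bound site.

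Among 36 other genes of the pathway, taken from a list of KEAP1 and NRF2 regulators, BACH1 and NRF1 regulators and further bZIP relatives, 5 (13.9%) had a region that both CDDO-Im libraries listed, against 11.6% of all genes. A peak of CDDO-Im 1 lay in the windows of 10 (27.8%) and one of CDDO-Im 2 in those of 14 (38.9%), against 16.4% and 23.0% of all genes. Inside the gene the counts were 6 (16.7%) for CDDO-Im 1 and 9 of the 36 for CDDO-Im 2, against 6.38% and 9.05% of all genes. For vehicle 1 and vehicle 2, peaks lay in the windows of 4 genes each (11.1%), against 6.66% and 7.53%, and inside 4 (11.1%) and 2 (5.56%), against 2.52% and 2.66%. The list's shares were thus above those of all genes in every library, vehicle included, and no test was made of it. All genes were not matched to the list for length, and the list was chosen with earlier results of these data known. The genes with a region shared by the CDDO-Im libraries were SQSTM1, CUL1, RXRA, CHD6 and MAFA. Their tags, given below, are not divided by the background of each library. A gained region lay near 3 of the 36 (8.33%), against 7.56% of all genes, and a region of both vehicle libraries near 2 (5.56%), against 1.81%. CUL1, the scaffold of the ubiquitin ligase that acts on NRF2 independently of KEAP1, carried 29 and 33 tags (CDDO-Im 1 and 2) at 148793613 to 148793970 on chromosome 7, within the gene, against 6 and 12 (vehicle 1 and 2). SQSTM1, the autophagy receptor p62 that sequesters KEAP1, carried 23 and 53 tags (CDDO-Im 1 and 2), also within the gene, against 9 and 6 (vehicle 1 and 2). RXRA, a nuclear receptor that binds NRF2, carried 9 tags (CDDO-Im 1) and 14 tags (CDDO-Im 2) at a site unlisted in vehicle. MAFA, a large MAF protein, carried 8 tags (CDDO-Im 1) and 7 tags (CDDO-Im 2) 24.0 kb from the gene, likewise unlisted in vehicle. CHD6, a chromatin remodeller, carried 21 tags (CDDO-Im 1) and 25 tags (CDDO-Im 2) 25.3 kb from the gene, where vehicle 2 listed 8 tags, and its other shared region was the gained one. PALB2 and PGAM5, which bind KEAP1, and FBXW7, a ligase subunit that acts on NRF1, each had 1 peak of each CDDO-Im library in the window, at different places. CUL3 and RBX1, which form the ligase with KEAP1, had no such region: CDDO-Im 1 listed 2 peaks in the CUL3 window and no library listed any in that of RBX1. Of the 36 genes, 18 had no peak in any library, RBX1 among them, which compares with 68.5% of all genes.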

How the data were processed

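The submitters' processing notes name MACS2 2.2.7.1, BWA 0.7.17 and bcl2fastq 2.15.0 as tools and, without a role, the builds GRCm38 and hg38. Peak positions are read as hg38. How duplicates were handled, and the caller's control and threshold, were not given in the sources used here, and the 2 input samples were not analysed here. Peaks were called per library, since each peak name carries 1 library. The deposited lists give per peak a fold enrichment (ratio), a −log10 p, a −log10 q and a score, which in all but 3 peaks is the whole part of 10 times the −log10 q.

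Tags were recovered from the deposited fold, taken as tags plus 1 over background plus 1, and from the −log10 p, taken as the Poisson tail above the tags, to within 0.001 plus 0.0002 of that value. They matched for 99.98% to 100% of peaks and for all 9 peaks described. The MAFK peak of CDDO-Im 2 had 2 matches, of which the one with a background not below the genome-wide one was kept. The genome-wide background was the lowest one that at least 10 peaks of a library share. Intervals are not given, because a list holds only peaks past a threshold. Overlapping peaks (1 bp or more) were joined on chromosomes 1 to 22 and X. The peak-dense megabases hold more than 20 joined regions each.

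For peak numbers, the exact two-sided permutation test ran over libraries. Comparing tags between groups needs a region of all 4 libraries, and the 9 genes had none. All 9 genes are named, with the list genes where both CDDO-Im libraries listed a region, and list genes named beside them were chosen after their values were seen. The members, lists and tests were chosen with earlier results of these data known. Region calls and tag recovery were tested on simulated data. The simulated fold and p followed the formula above, and a recovery counted as correct when the true tags were among the matches. That did not test the choice between matches, or whether the deposited values follow the formula. Python 3.11.15, pandas 2.3.3, numpy 2.4.6, scipy 1.17.1 and matplotlib 3.10.9 were used. Promoter sequences are those of RefSeq on GRCh38.p14. The genes most like MAFK in their peak pattern are not reported here.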

Additional observations from a re-analysis of the deposited data

How the results depend on the processing

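The number of genes with a region that both CDDO-Im libraries listed, 2 of 9, was 0 within 10 kb of the gene, 0 inside the gene only and 0 once a −log10 q of 10 was required, because the MAFK and NFE2L1 regions lie 17.2 and 45.6 kb away and have a −log10 q of 6.43 and 5.87 in CDDO-Im 1. The number with a gained region, 2, was likewise 0 under each of these 3 settings. Leaving out a library gave 2 to 4 for both counts, with 4 without CDDO-Im 1, when MAFG and MAFF join. With a CDDO-Im library left out, the rule asks only for a peak of the other CDDO-Im library. The values are then not counts of replicated regions. Both counts stayed at 2 within 100 kb, with a −log10 q minimum of 5, outside the peak-dense megabases and under both stricter overlaps. They also stayed at 2 with peaks in those megabases left out of every library and CDDO-Im 2 cut to its strongest 3249 remaining peaks. That alternative was added after seeing the data. The count for both vehicle libraries was 0 under all 13 alternatives run. The nearest vehicle summit to any of the 9 genes was 238.1 kb away, beyond every window used, so none of them could raise this count. The difference in peaks per library, 4.5, was positive under all 12 alternatives run. No vehicle library held a peak under any of them, so the difference could not turn negative and its sign is no check. With all 4 libraries kept and no block, the exact permutation p ran from 0.33 to 1. The difference was 2.0 to 7.0 when a library was left out, with 7.0 without CDDO-Im 1 and 2.0 without CDDO-Im 2. It was 2.0 within 10 kb or inside the gene and 2.5 with a −log10 q of at least 10. In these 3 settings CDDO-Im 1 had 0 peaks and p was 1. With the library number as a replicate block, the difference was 4.5 (exact sign-flip permutation p = 0.5, the smallest 2 pairs allow). The labels say nothing of what the shared numbers mean, so the block is a number only. The list count of 5 was 3 with a minimum −log10 q of 10, and 5 to 14 when a library was left out. It was 14 without CDDO-Im 1 and 10 without CDDO-Im 2, where again a peak of the other CDDO-Im library was enough. No alternative for tags at regions of all 4 libraries was run, since the genes had none. The main limits are 2 libraries per group, low tags, and lists that hold no value where no peak was called.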
